A study of Mus musculus with 12 samples.

Results

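The mRNA of 10 genes of insulin, IGF1 and AKT signaling was followed in the mouse heart. They were the ligand gene Igf1, the receptor genes Insr and Igf1r, the adaptor genes Irs1 and Irs2, the lipid kinase subunit gene Pik3r1, the kinase genes Pdpk1, Akt1 and Akt2, and the translation repressor gene Eif4ebp1. Measurements were taken from every probe set whose annotation names one of these genes alone, which gave 30 of the 45037 probe sets of the array table. A probe set is a group of short probes summarised to 1 intensity, a linear brightness. Intensities of different probe sets depend on their probes, so levels were compared between arrays and not between genes. Each gene had 1 to 5 probe sets, described from the brightest to the dimmest by their mean over the arrays.

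The arrays were Affymetrix arrays of heart RNA from male C57BL/6J mice, 8 to 10 weeks old by the labels, with 3 arrays for each of 4 groups. The KO-labelled DOX group held mice labelled CHIP knockout that received doxorubicin (DOX), an anthracycline used against cancer that damages the heart. The WT DOX group held wild-type mice given the same single injection of 15 mg/kg, and hearts of both were taken at day 5. The KO-labelled no treatment and WT no treatment groups received no DOX. CHIP is a ubiquitin ligase and cochaperone encoded by Stub1. The study describes the altered mice as carrying a CHIP transgene in the heart (the promoter that drives it is not given in the sources used here), the WT mice as littermates, the mice without DOX as saline-injected, a higher dose and a somewhat older age. Whether an array held RNA of 1 heart or of several is not stated, so each p measures the spread between these arrays.

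Stub1 went against the knockout label. Its brighter probe set read 5561, 7998 and 8723 on KO-labelled DOX arrays, against 1944, 1950 and 1930 on WT DOX arrays. It read 8762, 9817 and 9655 on KO-labelled no treatment arrays, against 1857, 1831 and 1790 on WT no treatment arrays. All 6 KO-labelled arrays lay above all 6 WT arrays, while the groups overlapped on the other Stub1 probe set (1434412_x_at). The suffix of that probe set marks probes that can match other transcripts. Whether either probe set lies in a deleted part of the gene or in a transgene is not known here. The arrays are therefore called KO-labelled throughout, and no genotype difference below is read as the effect of less or of more CHIP.

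Array medians lay between 28.9 and 30.4, and the mean correlation of an array with the others of its group was 0.990 to 0.997. KO-labelled no treatment replicate 3 and WT DOX replicate 2 lay farthest from the other arrays of their groups. All 10 cardiomyocyte markers were measured well above the array medians, the lowest being Ryr2 with a mean of 3270, and only Ryr2 was called in a comparison, lower after DOX in KO-labelled hearts. In a whole heart, fewer cells of a type and less RNA per cell cannot be told apart.

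Insulin and IGF1 bind receptor tyrosine kinases that phosphorylate adaptor proteins of the IRS family. The adaptors recruit a lipid kinase, PI3K, whose product brings the kinases PDK1 and AKT to the membrane, where PDK1 activates AKT. AKT then promotes glucose uptake and growth, holds FoxO transcription factors out of the nucleus and, through mTORC1, releases translation from the repressor 4E-BP1. In cardiomyocytes the pathway is known for its roles in cell size, metabolism and survival. Its steps are changes of proteins, and the mRNA levels given here do not measure them. By Western blot the study reports less phosphorylated AKT in WT hearts after DOX, which was not significantly reversed in its transgenic hearts. It reports no significant fall of IGF1R protein after DOX.

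Every member mRNA that passed the test after DOX was higher than without treatment. A probe set was called where the adjusted p of limma was under 0.05, with the adjustment over all 45037 probe sets. After DOX in KO-labelled hearts, 2 of the 30 probe sets (6.67%) were called, both higher and both of Pik3r1, where 2.2% of all probe sets were called in either direction and 0.731% were called higher. After DOX in WT hearts, 5 of the 30 (16.7%) were called, all higher and from Pik3r1, Pdpk1 and Eif4ebp1, where 3.06% of all were called and 1.66% were called higher. The median log2 difference over the 30 was 0.14 in KO-labelled hearts and 0.26 in WT hearts, against medians over all probe sets of 0.01 in KO-labelled and -0.01 in WT hearts.

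Between genotypes the called members were lower in KO-labelled hearts. After DOX, 4 of the 30 (13.3%) were called lower, from Insr, Pdpk1 and Eif4ebp1, where 0.941% of all probe sets were called and 0.651% were called lower. Without treatment, 2 of the 30 (6.67%) were called lower, both of Eif4ebp1, where 1.81% of all were called and 0.89% were called lower. The interaction, which asks whether the DOX response differs between KO-labelled and WT hearts, was called for 0 of the 30 and for 0.0% of all probe sets by limma. At an unadjusted p under 0.05 the interaction held 6 of the 30 and 3914 probe sets in all (8.69%). A response called in one genotype and not in the other is therefore not shown to differ. The comparisons share arrays: the WT DOX arrays stand in the DOX response of WT hearts and in the genotype difference after DOX, with opposite sign, so calls in both are not independent of each other. In fits to only the 6 arrays compared, no member was called between genotypes or after DOX in KO-labelled hearts. Of all probe sets, 0.00444% were then called between genotypes after DOX and 0.457% without treatment. After DOX in KO-labelled hearts the share was 0.175%. After DOX in WT hearts such fits called 7 member probe sets and 2.02% of all.

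**Figure D1:**
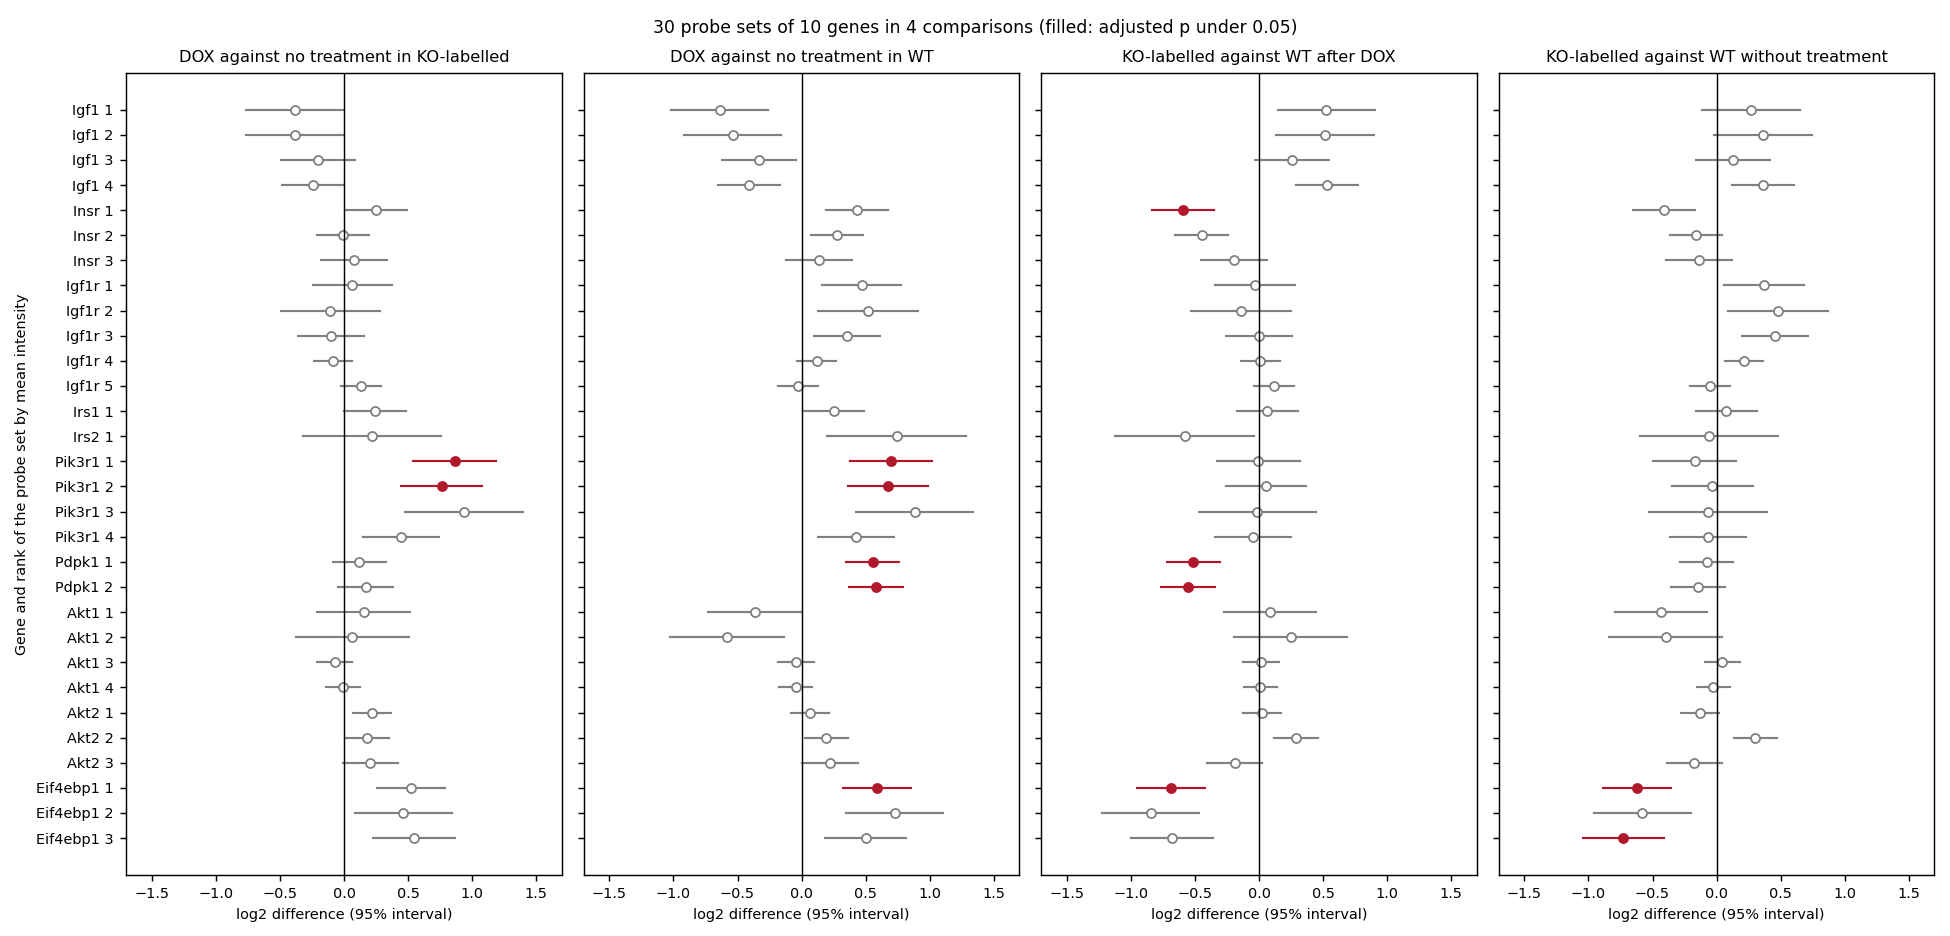
Log2 differences (x axis, on the scale of log2 of intensity plus 32) of the 30 member probe sets, by gene, in the DOX responses and the genotype differences, with bars for the 95% confidence interval (n = 3 arrays a group). Filled points have an adjusted p under 0.05 from limma; they lie right of zero for Pik3r1, Pdpk1 and Eif4ebp1 after DOX and left of zero for Insr, Pdpk1 and Eif4ebp1 between genotypes.

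Igf1 encodes the growth factor IGF1 and is one of the genes the study itself picked from these arrays. The study lists Igf1 as higher in its transgenic than in WT hearts after DOX and reports that qPCR bore this out. The brightest Igf1 probe set read 159, 232 and 181 on KO-labelled DOX arrays and 108, 110 and 150 on WT DOX arrays. It read 269, 301 and 206 on KO-labelled no treatment arrays and 173, 209 and 243 on WT no treatment arrays. The WT DOX arrays were the lowest of the 12, below every array of the other groups. Against WT no treatment arrays the log2 difference amounted to -0.64 (standard error 0.17, limma's adjusted p = 0.0756), while KO-labelled DOX against WT DOX gave 0.53 (standard error 0.17, adjusted p = 0.175). Neither passed the threshold. For Igf1 the study gives a fold increase and names no probe set or adjusted p, so these tests are not its measure.

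The 4 Igf1 probe sets pointed the same way in each comparison without a call. DOX against no treatment gave log2 differences from -0.38 to -0.21 in KO-labelled hearts and from -0.64 to -0.34 in WT hearts. KO-labelled against WT hearts gave 0.26 to 0.53 after DOX and 0.13 to 0.36 without treatment. The smallest adjusted p was that of the dimmest probe set between genotypes after DOX, 0.0565, with intensities of 65.9 ± 3.84 on KO-labelled DOX and 36.2 ± 8.78 on WT DOX arrays (SD, n = 3). Without WT DOX replicate 3 the DOX response of WT hearts was called on 3 of the 4 probe sets (adjusted p = 0.0462, 0.0344 and 0.0302 from the brightest to the dimmest of them), and the genotype difference after DOX on the dimmest (adjusted p = 0.0268). Markers of fibroblasts and macrophages, 2 cell types that make IGF1, were read on the same arrays. The summed intensity of 10 of 10 fibroblast markers was 20219 to 20416 on KO-labelled DOX, 16021 to 17912 on WT DOX, 22440 to 31736 on KO-labelled no treatment and 18002 to 21698 on WT no treatment arrays. That of 12 of 12 macrophage markers was 5118 to 6175 on KO-labelled DOX, 3543 to 4656 on WT DOX, 5360 to 10746 on KO-labelled no treatment and 5764 to 7390 on WT no treatment arrays. Called lower after DOX in KO-labelled hearts were the fibroblast markers Lum and Col1a1 and the macrophage marker Cx3cr1, and in WT hearts the fibroblast markers Lum and Dpt and the macrophage markers Cd68 and Csf1r. KO-labelled hearts were called higher than WT hearts for Lum after DOX and for Col1a1 without treatment, while 0 of the 12 macrophage markers were called between genotypes by limma in either treatment. None of these markers was at 0, and their part in the Igf1 values was not tested.

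**Figure D2:**
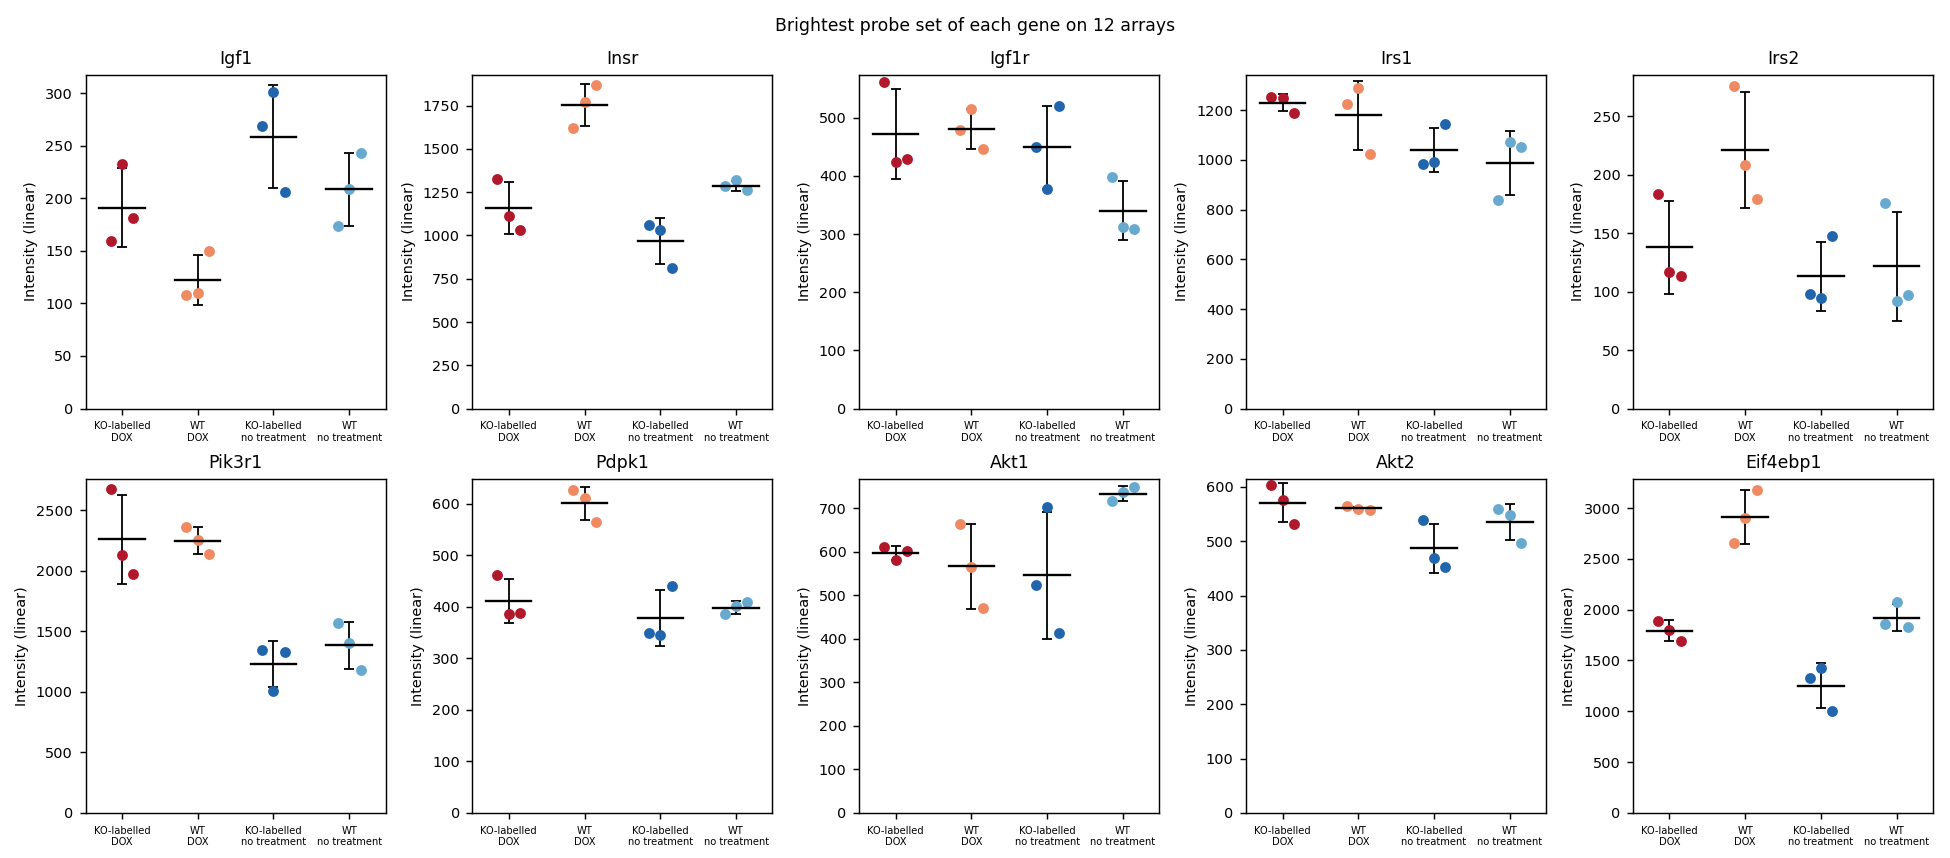
Intensity (y axis, linear scale, from 0) of the brightest probe set of each of the 10 genes on the 12 arrays, with groups along the x axis. Each dot is 1 array, with the group mean as a horizontal line and its SD as a vertical bar (n = 3); the WT DOX arrays are the lowest for Igf1 and the highest for Insr, Pdpk1 and Eif4ebp1.

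Insr encodes the insulin receptor. Its brightest probe set (1434446_at) read 1323, 1113 and 1034 on KO-labelled DOX arrays and 1623, 1769 and 1868 on WT DOX arrays. It read 1058, 1033 and 814 on KO-labelled no treatment arrays and 1284, 1318 and 1261 on WT no treatment arrays. The WT DOX arrays were the highest of the 12, and within either treatment every KO-labelled array lay below every WT array. After DOX the KO-labelled hearts were lower by a log2 difference of -0.59 (standard error 0.11, 95% confidence interval -0.83 to -0.35, ratio 0.66, adjusted p = 0.0419 from limma). The difference without treatment was -0.41 (adjusted p = 0.1) and the DOX response of WT hearts 0.43 (adjusted p = 0.0627), neither called. The DOX response of KO-labelled hearts was 0.25 with overlapping groups (adjusted p = 0.291).

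The other Insr probe sets were dim. After DOX the next brightest gave -0.45 (adjusted p = 0.0564), with 33.8, 33.2 and 40.4 on KO-labelled and 53.8, 76.8 and 52.6 on WT arrays. The third gave -0.20 (adjusted p = 0.464). The call on the brightest probe set was kept in 2 of the 12 fits that left out 1 array, those without KO-labelled DOX replicate 1 and without KO-labelled no treatment replicate 3, and lost in the other 10 with adjusted p up to 0.155. The log2 difference in those 12 fits lay between -0.69 and -0.52. Of all probe sets, 0.0422% to 1.98% were called in this comparison in those fits, against 0.941% with all 12 arrays.

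Igf1r encodes the IGF1 receptor. Its brightest probe set read 561, 424 and 430 on KO-labelled DOX arrays and 479, 516 and 447 on WT DOX arrays. It read 450, 378 and 520 on KO-labelled no treatment arrays and 399, 313 and 308 on WT no treatment arrays. The WT no treatment arrays held the lowest values, and only they did not overlap the WT DOX arrays. DOX against no treatment in WT hearts gave 0.47 (standard error 0.14, adjusted p = 0.101), and KO-labelled against WT without treatment gave 0.37 (standard error 0.14, adjusted p = 0.246). Neither was called.

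The next Igf1r probe sets by brightness behaved alike, at 0.52 and 0.35 for the DOX response of WT hearts and 0.48 and 0.45 for the genotype difference without treatment (adjusted p = 0.0862 at the lowest). After DOX the log2 differences between genotypes on all 5 Igf1r probe sets lay between -0.14 and 0.11 and none was called. The interaction on the 3 brightest was -0.40, -0.62 and -0.46, with unadjusted p of 0.0673, 0.0302 and 0.0194 and adjusted p of 0.598, 0.552 and 0.519 from limma. The 2 dimmest averaged 35.2 and 20.1 over the 12 arrays.

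Irs1 and Irs2 encode adaptors that carry the signal from both receptors to PI3K, and each had 1 probe set. Irs1 averaged 1230 ± 35.8 on KO-labelled DOX, 1180 ± 139 on WT DOX, 1039 ± 89.6 on KO-labelled no treatment and 988 ± 130 on WT no treatment arrays (SD, n = 3). Its DOX response was 0.24 in KO-labelled hearts (adjusted p = 0.308) and 0.25 in WT hearts (adjusted p = 0.241). Genotypes differed by 0.06 after DOX and 0.08 without treatment, with 95% confidence intervals of -0.17 to 0.30 and -0.16 to 0.32.

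Irs2 varied more within groups. It read 184, 117 and 113 on KO-labelled DOX arrays, 276, 209 and 179 on WT DOX arrays, 98.2, 94.7 and 147 on KO-labelled no treatment arrays and 176, 92.5 and 97.6 on WT no treatment arrays. The WT DOX arrays were the highest group, with the lowest of them beside the highest KO-labelled DOX and WT no treatment arrays. In WT hearts the DOX response was 0.74 (standard error 0.24, adjusted p = 0.130), and the genotype difference after DOX was -0.58 (standard error 0.24, adjusted p = 0.287). Both missed the threshold.

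Pik3r1 encodes the main regulatory subunit of PI3K, which stabilises the catalytic subunit and docks it on IRS proteins. It was the member called after DOX in both genotypes. The promoter window with GC boxes (of 2 windows of the gene; RefSeq, build GRCm38.p6, minus strand, chr13:101768168-101768467, from 250 bases before to 50 after the annotated start) is shown because the gene was called on several probe sets. Capitals mark the GC box GGGCGG, searched on both strands.
Pik3r1: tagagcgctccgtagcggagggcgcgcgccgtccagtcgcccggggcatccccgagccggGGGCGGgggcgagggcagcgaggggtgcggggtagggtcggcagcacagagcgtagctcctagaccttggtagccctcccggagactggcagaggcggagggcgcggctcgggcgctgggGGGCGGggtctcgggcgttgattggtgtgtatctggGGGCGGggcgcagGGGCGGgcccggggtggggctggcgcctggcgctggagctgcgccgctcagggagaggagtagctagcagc
The window held 4 GC boxes and no FOXO core (TGTTTAC, both strands), the site of the FoxO factors that AKT controls. The second Pik3r1 window held neither. A GC box was found in 35.7% and a FOXO core in 3.65% of all 32851 RefSeq windows. Of the 10 genes, 8 had windows, 14 in all, of which 7 held a GC box and 1 a FOXO core. A match is a description of the letters and not a site in use.

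The brightest Pik3r1 probe set (1438682_at) read 2676, 2133 and 1970 on KO-labelled DOX arrays and 2357, 2255 and 2137 on WT DOX arrays. It read 1345, 1010 and 1328 on KO-labelled no treatment arrays and 1569, 1405 and 1178 on WT no treatment arrays. All 6 DOX arrays lay above all 6 arrays without treatment, and the genotypes overlapped within either treatment. DOX gave a log2 difference of 0.86 in KO-labelled hearts (standard error 0.14, 95% confidence interval 0.54 to 1.18, 1.82-fold, adjusted p = 0.0210 from limma) and of 0.70 in WT hearts (standard error 0.14, 95% confidence interval 0.37 to 1.02, 1.62-fold, adjusted p = 0.0362). The interaction was 0.17 with a 95% confidence interval of -0.29 to 0.62.

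A further Pik3r1 probe set (1425515_at) was called in both genotypes. It read 324, 351 and 247 on KO-labelled DOX arrays and 167, 148 and 186 on KO-labelled no treatment arrays, a log2 difference of 0.76 (adjusted p = 0.0290). It read 312, 284 and 281 on WT DOX arrays and 208, 173 and 138 on WT no treatment arrays, a log2 difference of 0.67 (adjusted p = 0.0372). The remaining 2 gave 0.93 and 0.44 in KO-labelled hearts and 0.88 and 0.42 in WT hearts, without overlap between DOX and no treatment and without a call (adjusted p = 0.051 at the lowest). The genotype differences on the 4 lay between -0.17 and 0.05, and all their intervals held 0.

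Leaving out single arrays ended some Pik3r1 calls. Over the 12 fits, 0.258% to 2.42% of all probe sets were called after DOX in KO-labelled and 0.091% to 5.07% in WT hearts. On the brightest probe set the KO-labelled call was kept in 10 of 12 such fits and lost without KO-labelled DOX replicate 1 (adjusted p = 0.0766) or replicate 2 (0.0588). The WT call was kept in 7 of 12 and lost without KO-labelled DOX replicate 2, WT DOX replicate 1 or 2, or WT no treatment replicate 2 or 3 (adjusted p up to 0.127). On the further probe set the calls were kept in 8 and 7 of 12 in KO-labelled and WT hearts. The KO-labelled one was lost without KO-labelled DOX replicate 1 or 2 or KO-labelled no treatment replicate 1 or 2 (adjusted p up to 0.115). The WT one was lost without KO-labelled no treatment replicate 1, WT DOX replicate 1 or 2, or WT no treatment replicate 2 or 3 (adjusted p up to 0.123).

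**Figure D3:**
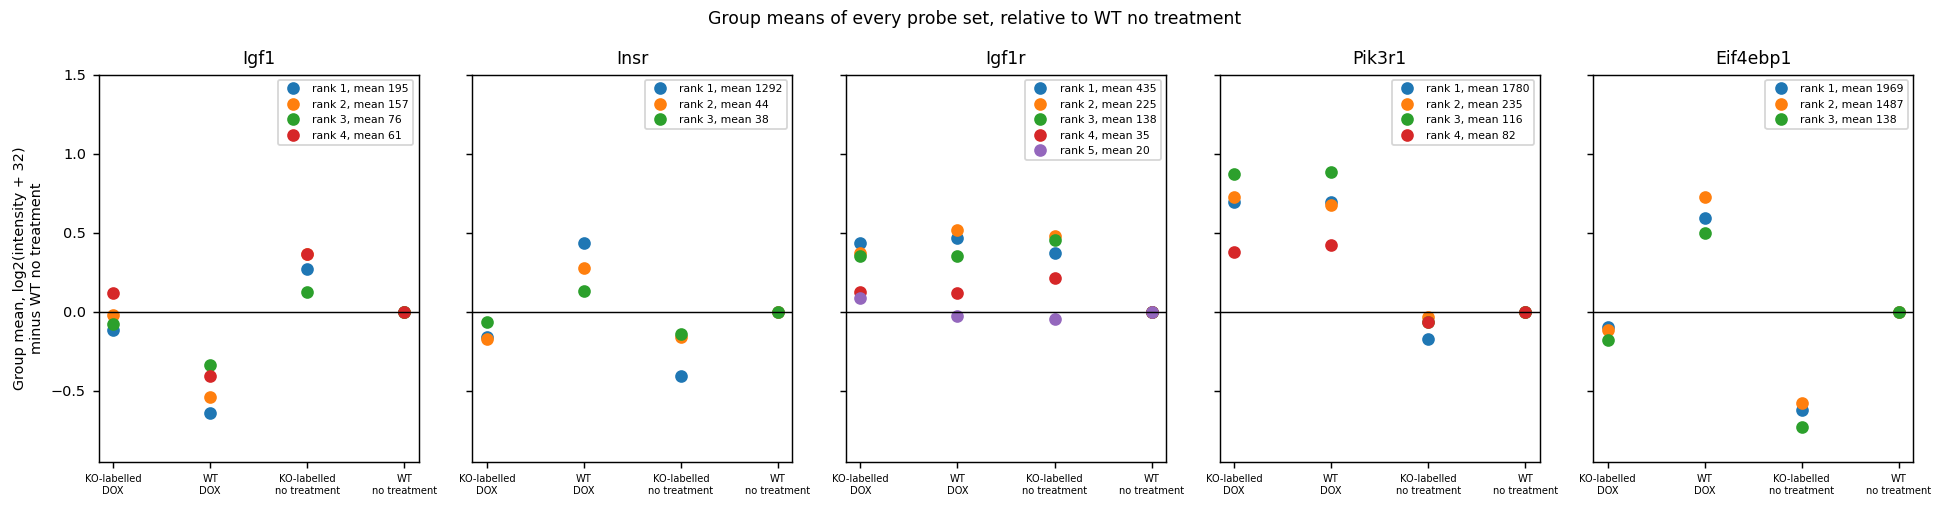
Group means on the log2 scale (y axis, relative to the mean of the WT no treatment arrays) of every probe set of Igf1, Insr, Igf1r, Pik3r1 and Eif4ebp1, with groups along the x axis, 3 arrays each. Colours mark probe sets by brightness; all 4 of Pik3r1 lie above zero after DOX, and all 3 of Eif4ebp1 lie lower in KO-labelled than in WT hearts.

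Pdpk1 encodes PDK1, the kinase that phosphorylates AKT in its activation loop. Both of its probe sets were called higher after DOX in WT hearts and lower in KO-labelled than in WT hearts after DOX. The promoter window with GC boxes (RefSeq, build GRCm38.p6, minus strand, chr17:24141545-24141844) is shown for comparison with that of Pik3r1, with GC boxes in capitals.
Pdpk1: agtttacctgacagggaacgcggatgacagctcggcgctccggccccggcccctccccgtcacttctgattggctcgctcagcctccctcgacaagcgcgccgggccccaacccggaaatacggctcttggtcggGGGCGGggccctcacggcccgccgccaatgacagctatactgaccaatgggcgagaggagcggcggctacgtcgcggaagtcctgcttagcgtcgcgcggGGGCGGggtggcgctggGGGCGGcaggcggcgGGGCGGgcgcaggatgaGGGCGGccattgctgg
It held 5 GC boxes and no FOXO core, and the second window of the gene held neither.

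The brightest Pdpk1 probe set (1415729_at) read 461, 387 and 387 on KO-labelled DOX arrays and 626, 611 and 565 on WT DOX arrays. It read 349, 344 and 441 on KO-labelled no treatment arrays and 385, 400 and 409 on WT no treatment arrays. The 3 WT DOX arrays stood above the other 9, which overlapped. DOX in WT hearts gave a log2 difference of 0.55 (standard error 0.09, 95% confidence interval 0.35 to 0.76, 1.47-fold, adjusted p = 0.0212 from limma), and KO-labelled against WT hearts after DOX gave -0.52 (standard error 0.09, 95% confidence interval -0.72 to -0.31, ratio 0.70, adjusted p = 0.0404).

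The other Pdpk1 probe set (1416501_at) read 358, 289 and 285 on KO-labelled DOX arrays and 481, 446 and 483 on WT DOX arrays, a log2 difference of -0.56 (standard error 0.09, adjusted p = 0.0362). On WT no treatment arrays it read 342, 274 and 298, so that DOX in WT hearts gave 0.58 (standard error 0.09, adjusted p = 0.0203). In KO-labelled hearts the DOX response was 0.12 and 0.17 on the 2 probe sets, with 95% confidence intervals of -0.09 to 0.32 and -0.04 to 0.38. Without treatment the genotypes differed by -0.08 and -0.14, neither called. The interaction was -0.44 (unadjusted p = 0.00759, adjusted p = 0.464) and -0.41 (unadjusted p = 0.0117, adjusted p = 0.488) from limma, so a difference between the genotypes in the DOX response of Pdpk1 did not pass the test.

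The DOX call of WT hearts was kept in 8 of 12 fits without 1 array on either Pdpk1 probe set, and was lost on both without WT DOX replicate 1 or 2 or WT no treatment replicate 2 or 3 (adjusted p up to 0.0799). The genotype call after DOX was kept in 4 and 5 of 12 fits. On both probe sets it was lost without KO-labelled DOX replicate 2 or 3, WT DOX replicate 1 or 2, KO-labelled no treatment replicate 1, or WT no treatment replicate 2 or 3, and on the brighter also without WT no treatment replicate 1 (adjusted p up to 0.152). Its log2 difference stayed between -0.65 and -0.48. Of all probe sets, 0.091% to 5.07% were called for DOX in WT hearts and 0.0422% to 1.98% for genotypes after DOX in those fits.

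Akt1 and Akt2 encode AKT isoforms, and none of their 7 probe sets was called in any comparison when all 12 arrays were used. The brightest Akt1 probe set read 610, 580 and 602 on KO-labelled DOX arrays and 664, 566 and 470 on WT DOX arrays. It read 524, 703 and 413 on KO-labelled no treatment arrays and 716, 736 and 749 on WT no treatment arrays. The WT no treatment arrays were the highest of the 12 and lay close together, while KO-labelled no treatment replicate 3 was the lowest. The DOX response was 0.15 in KO-labelled hearts (adjusted p = 0.742) and -0.37 in WT hearts (adjusted p = 0.259), and the interaction 0.52 (unadjusted p = 0.0476, adjusted p = 0.573 from limma). Without treatment the genotypes differed by -0.43 (adjusted p = 0.244). The DOX response of KO-labelled hearts and the genotype difference without treatment moved with single arrays, the latter in size but not in direction. Without KO-labelled no treatment replicate 2 the DOX response of KO-labelled hearts was 0.34 and the genotype difference without treatment -0.62, which was then called (adjusted p = 0.0428 from limma). Without replicate 3 of that group they were -0.02 and -0.26, neither called.

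The next Akt1 probe set gave 0.06 and -0.58 for the DOX responses of KO-labelled and WT hearts and an interaction of 0.65 (adjusted p = 0.568), with a genotype difference without treatment of -0.40 (adjusted p = 0.419). Without KO-labelled no treatment replicate 2 this difference was -0.68 and the DOX response of WT hearts stayed at -0.58, both then called (adjusted p = 0.012 and 0.0169 from limma), and the DOX response of KO-labelled hearts was 0.35. Without replicate 3 of that group the genotype difference was -0.18 and the DOX response of KO-labelled hearts -0.15, neither called. The remaining 2 averaged 27.5 and 40.4 over the 12 arrays with log2 differences between -0.07 and 0.05 in the DOX responses and genotype differences. Akt1 was the gene whose window held the FOXO core, and that window (RefSeq, build GRCm38.p6, minus strand, chr12:112674835-112675134) is shown for that reason, with the core in capitals.
Akt1: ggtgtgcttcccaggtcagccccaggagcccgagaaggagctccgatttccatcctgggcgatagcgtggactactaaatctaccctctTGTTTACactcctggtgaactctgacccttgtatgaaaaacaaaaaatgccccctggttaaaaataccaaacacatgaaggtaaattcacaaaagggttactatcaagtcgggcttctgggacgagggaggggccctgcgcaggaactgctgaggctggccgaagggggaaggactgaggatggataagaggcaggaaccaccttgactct
It held no GC box, while the second Akt1 window held 5 GC boxes and no FOXO core.

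Akt2, known for its part in insulin-stimulated glucose uptake, averaged 571 ± 35.8 on KO-labelled DOX, 561 ± 3.07 on WT DOX, 487 ± 45.9 on KO-labelled no treatment and 535 ± 33.0 on WT no treatment arrays on its brightest probe set (SD, n = 3). Its 3 probe sets disagreed between genotypes. After DOX they gave log2 differences of 0.02, 0.29 and -0.19, and without treatment -0.13, 0.30 and -0.17, with an adjusted p of 0.0833 at the lowest. Without KO-labelled no treatment replicate 2 the second of them was called at 0.29 after DOX (adjusted p = 0.0448) and at 0.39 without treatment (adjusted p = 0.0154). DOX against no treatment gave 0.18 to 0.22 in KO-labelled hearts and 0.07 to 0.22 in WT hearts on the 3 probe sets, none called.

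Eif4ebp1 encodes 4E-BP1, which binds the cap-binding factor eIF4E and blocks translation until mTORC1 phosphorylates it. It was the member called in the most comparisons. The brightest probe set (1434976_x_at) read 1893, 1796 and 1688 on KO-labelled DOX arrays and 2654, 2901 and 3179 on WT DOX arrays. It read 1325, 1425 and 1002 on KO-labelled no treatment arrays and 1858, 2074 and 1830 on WT no treatment arrays. In either treatment every KO-labelled array lay below every WT array, and in either genotype every DOX array lay above every array without treatment.

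KO-labelled against WT hearts gave a log2 difference of -0.69 after DOX (standard error 0.12, 95% confidence interval -0.95 to -0.42, ratio 0.62, adjusted p = 0.0370 from limma) and of -0.62 without treatment (standard error 0.12, 95% confidence interval -0.89 to -0.35, ratio 0.65, adjusted p = 0.0361). DOX gave 0.52 in KO-labelled hearts (standard error 0.12, adjusted p = 0.0568), which was not called, and 0.59 in WT hearts (standard error 0.12, 1.51-fold, adjusted p = 0.0338), which was. The interaction was -0.07 with a 95% confidence interval of -0.44 to 0.31, so the DOX responses of KO-labelled and WT hearts were not shown to differ.

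The other Eif4ebp1 probe sets had the same order of groups. The next brightest gave -0.85 after DOX (adjusted p = 0.056) and -0.58 without treatment (adjusted p = 0.132) between genotypes, and 0.46 (adjusted p = 0.208) and 0.73 (adjusted p = 0.0516) for the DOX responses of KO-labelled and WT hearts. The dimmest (1417563_at) was called without treatment, with 65.1, 90.1 and 65.5 on KO-labelled against 164, 133 and 130 on WT arrays, a log2 difference of -0.73 (standard error 0.14, adjusted p = 0.0384). After DOX it gave -0.68 (adjusted p = 0.0582). The suffix of the brightest probe set marks probes that can match other transcripts, so a share of its signal may come from them, which cannot be told apart here.

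The Eif4ebp1 calls were also lost without single arrays, even where the array stood outside the comparison and the log2 difference stayed the same. The share of all probe sets called moved in the same fits. It was 0.0422% to 1.98% for genotypes after DOX, 0.187% to 2.68% for genotypes without treatment and 0.091% to 5.07% for DOX in WT hearts. On the brightest probe set the genotype call after DOX was kept in 3 of 12 fits, those without KO-labelled DOX replicate 1, KO-labelled no treatment replicate 2 or KO-labelled no treatment replicate 3 (adjusted p up to 0.135 in the others). The genotype call without treatment was kept in 6 of 12 and lost without KO-labelled DOX replicate 2 or 3, KO-labelled no treatment replicate 1, or any WT no treatment array (adjusted p up to 0.136). The DOX call of WT hearts was kept in 5 of 12 and lost without KO-labelled DOX replicate 2 or any WT DOX or WT no treatment array (adjusted p up to 0.123). On the dimmest probe set the call was kept in 5 of 12 and lost without KO-labelled DOX replicate 3, WT DOX replicate 1, KO-labelled no treatment replicate 1 or 3, or any WT no treatment array (adjusted p up to 0.117).

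The pattern over the 12 arrays was compared with that of every probe set that names 1 gene and averages at least 32, by Pearson's r of the log2 values, given as a description because groups set much of it. Insr was most like Trpc4ap (r = 0.98), Gphn (0.98) and the member Eif4ebp1 (0.97), and Eif4ebp1 was most like Rpa2 (0.98), Insr (0.97) and Sik3 (0.97). Pdpk1 was most like Thumpd3 (0.97), Strn3 (0.97) and Sema5a (0.96), and Pik3r1 most like Tfdp2, Aldh2 and Lars (0.98 each).

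Of 73 other genes of the pathway, 67 were measured and 6 were not analysed here. After DOX in KO-labelled hearts 1 was called higher and 1 lower (2.99%), where 3.24% of the brightest probe sets of all 18193 genes were called in either direction. In WT hearts 1 was called higher and 3 lower (5.97%), where 3.97% of all were called. Between genotypes 1 was called higher in KO-labelled hearts after DOX (1.49%), where 1.42% of all were called, and 2 higher and 3 lower without treatment (7.46%), where 2.75% of all were called. The shares were near those of all genes after DOX in KO-labelled hearts and between genotypes after DOX. The interaction was called by limma for 0 of the 67 and for 0.0% of the brightest probe sets of all 18193 genes. An unadjusted p under 0.05 was found for 8 of the 67, where 8.69% of all 45037 probe sets had one. The median log2 difference over the 67 lay between -0.02 and 0.01 in all 5 comparisons.

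Phlda3, a target of p53 whose protein competes with AKT for membrane lipids, was the pathway gene with the largest genotype difference. It averaged 329 ± 20.6 on KO-labelled DOX, 130 ± 6.31 on WT DOX, 414 ± 138 on KO-labelled no treatment and 103 ± 3.49 on WT no treatment arrays (SD, n = 3). All 6 KO-labelled arrays lay above all 6 WT arrays, with log2 differences of 1.15 after DOX (adjusted p = 0.0232 from limma) and 1.68 without treatment (adjusted p = 0.00435). The call without treatment was kept in all 12 fits without 1 array, and that after DOX in 8. The stress-induced mTORC1 inhibitor Sesn3 was called higher in KO-labelled hearts without treatment, at 0.44 (adjusted p = 0.0170), and lower after DOX in KO-labelled hearts, at -0.46 (adjusted p = 0.0143).

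Among adaptors, Grb14, an inhibitor of the insulin receptor, was called lower in KO-labelled hearts without treatment, at -0.58 (adjusted p = 0.0181), and lower after DOX in WT hearts, at -0.50 (adjusted p = 0.0255). The related inhibitor Grb10 and the RAS-linked adaptor Grb2 were called lower in KO-labelled hearts without treatment, at -0.29 and -0.35 (adjusted p = 0.0470 each). After DOX in WT hearts, Mtor, the kinase of mTORC1, was called higher at 0.43 (adjusted p = 0.0444). In KO-labelled hearts Mtor averaged 435 ± 41.0 after DOX and 315 ± 23.5 without treatment (SD, n = 3), which was not called. Called lower after DOX in WT hearts were Inppl1, a lipid phosphatase that opposes PI3K, at -0.44 (adjusted p = 0.0346), and Eif4e, the cap-binding factor that 4E-BP1 holds, at -0.41 (adjusted p = 0.0414). Sesn1, a relative of Sesn3, was called higher after DOX in KO-labelled hearts at 0.94 (adjusted p = 0.0491). In WT hearts Sesn1 averaged 2496 ± 520 after DOX and 1404 ± 186 without treatment (SD, n = 3), which was not called. Apart from Phlda3, the called differences of these pathway genes were kept in 2 to 11 of 12 fits without 1 array.

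**Figure D4:**
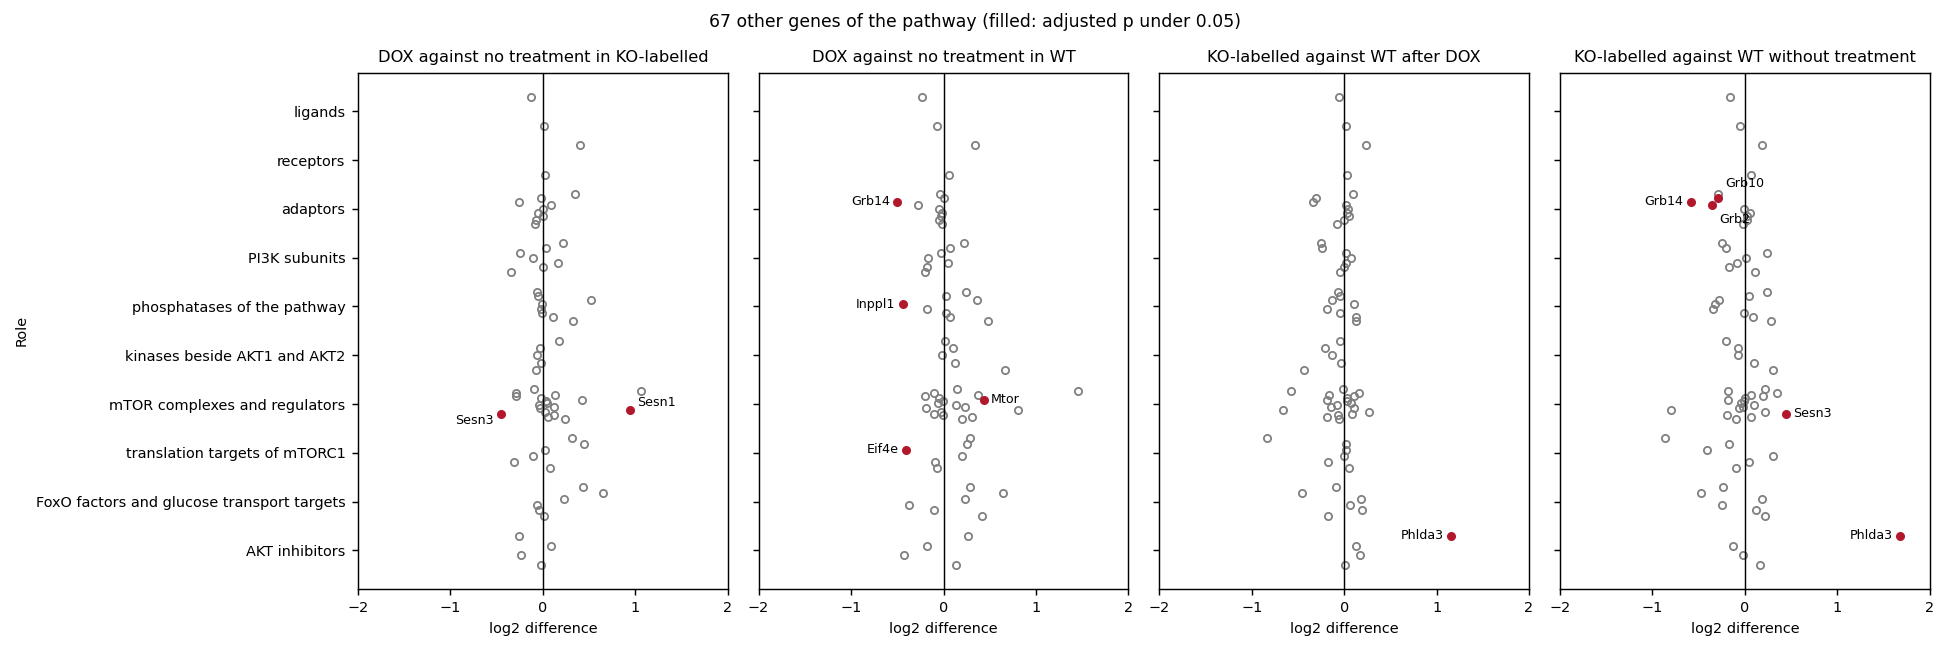
Log2 differences (x axis) of 67 other genes of the pathway on their brightest probe set, grouped by role, in the DOX responses and the genotype differences. Filled points have an adjusted p under 0.05 from limma and carry the gene symbol; most points lie within 0.5 of zero, with Phlda3 at 1.15 and 1.68 between genotypes.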

How the data were processed

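The deposited values are linear intensities, 1 per probe set and array, which the authors made with Affymetrix Expression Console. The version, the summary method and any scaling are not given in the sources used here. The number of arrays, 3 per group, limits the precision. Of the 45037 probe sets, 34945 name 1 gene, 932 several and 9160 none, and 34741 were matched by Entrez ID to the RefSeq gene table of GRCm38.p6.

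Arrays were grouped by their titles. To each intensity 32 was added before log2 was taken, so fold changes are on that scale and understate those of dim probe sets. The 12 arrays entered 1 linear model with a mean for each of the 4 groups (limma 3.58.1 in R 4.3.3, with lmFit, contrasts.fit and eBayes). Benjamini-Hochberg adjustment of the two-sided p-values ran over the whole table. With 3 arrays against 3, an exact permutation test of 1 value cannot give a p under 0.1. No pair of arrays held identical values. The procedure was tested on simulated data.

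The text names all 10 members with every probe set, each other pathway gene that was called, the 3 genes most like a called member, and Stub1. The members and the lists of pathway genes and cell type markers were chosen with earlier results of these data known. Markers chosen for adipocytes, lymphocytes, red cells and skeletal muscle were also summed: 3 of 4 adipocyte, 5 of 7 lymphocyte, 1 of 3 erythroid and 5 of 7 skeletal muscle markers measured averaged under 32. Of endothelial markers 9 of 9 were measured and none was called, and of smooth muscle markers 7 of 7, with Acta2 called higher in KO-labelled than in WT hearts without treatment and Acta2 and Cspg4 called lower after DOX in KO-labelled hearts. The erythroid marker Alas2 was called lower after DOX in WT hearts. Alternatives covered the added value, normalization, variance model, array weights, dim probe sets, probe sets of a gene, thresholds, the methods' t-test, a replicate block and left-out arrays. Promoter windows came from RefSeq. Python 3.11.15 with pandas 2.3.3 and matplotlib 3.10.9 served for tables and plots.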

Additional observations from a re-analysis of the deposited data

How the results depend on the processing

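The 13 called member differences gave 315 values under other settings, not counting the methods' t-test and the fits to only the 6 arrays compared. All of these kept their direction, 227 stayed called and 88 lost the call. Many of the settings cannot change the direction, because they leave the log2 difference as it was. Examples are a replicate block and leaving out an array that stands outside the comparison. The number of member probe sets called moved as follows, given for KO-labelled against WT after DOX (4) and without treatment (2) and for DOX against no treatment in KO-labelled (2) and WT hearts (5). With an added value of 1 it was 8, 2, 5 and 9, where 0.848%, 1.81%, 2.45% and 4.29% of all probe sets were called. With 16 it was 7, 2, 4 and 7, where 1.01%, 2.0%, 2.55% and 3.71% were called. With probe sets averaging at least 32 it was 8, 4, 5 and 12 of the 28 members left, where 3.38%, 6.28%, 7.8% and 10.4% of the 21889 probe sets left were called. At least 100 gave 6, 6, 5 and 13 of 20, where 5.73%, 10.1%, 12.1% and 13.7% of 12942 were called, against 0.941%, 1.81%, 2.2% and 3.06% of all probe sets in the fit reported. Quantile normalization gave 6, 4, 4 and 6, where 1.1%, 2.21%, 2.58% and 3.62% of all probe sets were called. A trended and robust variance gave 8, 2, 5 and 11, where 1.01%, 2.02%, 2.64% and 4.41% were called. Array weights gave 8, 4, 4 and 11, where 1.6%, 3.14%, 2.88% and 5.67% were called. The brightest probe set per gene gave 3, 1, 2 and 4, and averaging the probe sets of each gene 3, 1, 3 and 3, of 10 members each, where 2.29%, 4.15%, 4.75% and 5.19% and 1.95%, 3.72%, 4.53% and 5.69% of 18193 genes were called. An adjusted p under 0.01 gave 0 in each and under 0.1 gave 8, 4, 5 and 11. The shares of all probe sets at these thresholds were not counted, so these counts are not read as a result about the members. Only the 6 arrays compared gave 0, 0, 0 and 7, where 0.00444%, 0.457%, 0.175% and 2.02% of all probe sets were called. The methods' t-test gave 11, 8, 7 and 17 of 30 at its unadjusted threshold, where 11.8%, 11%, 11.9% and 15.0% of all probe sets passed. The interaction by two-way ANOVA gave 4, where 8.13% passed. After Benjamini-Hochberg adjustment each of these gave 0 members. Of all probe sets, 0.0%, 0.00666%, 0.0% and 0.00888% were then called, and 0.0% for the interaction. Leaving out 1 array gave 0 to 5, 0 to 5, 0 to 3 and 0 to 8, and 0 throughout for the interaction. Of all probe sets, 0.0422% to 1.98%, 0.187% to 2.68%, 0.258% to 2.42% and 0.091% to 5.07% were called in those fits. Leaving out 1 array also called 5, 4, 2 and 7 member differences that were not called with all 12 arrays, each in 1 to 3 of the 12 fits. How many of all probe sets gained a call in this way was not counted, so these gains are not read as particular to the members. Where leaving out 1 array left an arm with 2 arrays, the spread was still pooled over the 4 groups. Leaving out both arrays farthest from their groups, chosen after seeing the data, gave 3, 0, 2 and 4. Of all probe sets, 0.555%, 0.802%, 1.63% and 1.75% were called in that fit. Apart from the t-test, the interaction was called for 0 members in every setting run. The cause of these moves was not tested.

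Replicate numbers did not pair the samples: same-numbered arrays deviated from their group means with correlations between -0.25 and 0.15, and 3 of 18 pairs were above 0.1. A replicate block gave 2, 3, 2 and 6 called member probe sets, where 0.746%, 1.85%, 2.43% and 2.96% of all were called. Subtracting array medians or adding 64 left the 4 counts as they were. With medians subtracted, 0.855%, 1.64%, 2.32% and 2.64% of all probe sets were called, and with 64 added 0.782%, 1.6%, 1.89% and 2.52%.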
